A study of Homo sapiens with 11 samples.

Results

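Hepatic stellate cells given HIV-1 alone were compared with cells given PBS by RNA-seq of 6 libraries, 3 with PBS and 3 with the virus. The series holds 9 RNA-seq libraries and 11 samples. Since the control was PBS, the virus and the rest of its preparation cannot be told apart. The cells were Lx2, an immortalised line of human stellate cells labelled wild type, so the results describe 1 line. The virus was HIV-1 Bal, a laboratory strain, given at a multiplicity of infection of 0.1, and RNA was taken at 24 h. The remaining 3 RNA-seq libraries had the same virus with 1 ug per ml of lipoteichoic acid. They entered the fit to help estimate the spread, and uneven responses among them add to it. Each group held 1 library from each of 3 labelled batches, and HIV-1 and PBS libraries of a batch were paired. Of 35303 genes in the count file, 16117 had enough counts to be tested. The labels do not say that batches were separate cultures, so the p-values cover only how these libraries vary, and part of that variation may be technical.

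Stellate cells store retinoids in the healthy liver and, once activated, turn into contractile cells that lay down scar matrix. HIV-1 enters a cell when its envelope binds CD4 and then a co-receptor such as CXCR4, and cells that lack CD4 can still bind virus through heparan sulfate proteoglycans. Cells that sense viral RNA or DNA usually answer with interferon-stimulated genes and with NF-kB targets such as the chemokine gene CXCL8, which encodes IL-8, the subject of the series. Viral transcripts were not analysed here, so the share of cells infected is not known.

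The PBS libraries held 55605967 to 90599780 counts and the HIV-1 libraries 55168033 to 62150822. In batches 1 and 2 the PBS library was the deeper of the pair, and in batch 3 the HIV-1 library. Of 19 stellate cell markers, 13 were at a mean of 1 CPM or more (CPM, the usual unit of a count scaled to the depth of its library, here after TMM scaling), and their summed level was 3087 to 6909 CPM with PBS and 3531 to 6487 CPM with HIV-1. Markers of other liver cells or leukocytes were mostly below 1 CPM. The macrophage genes C1QA, C1QB, C1QC and VSIG4 and the T cell genes CD2 and CD3G had no count in any of the 6 libraries. Nor had the hepatocyte genes APOA2, APOB, TTR and AHSG and the endothelial genes LYVE1, CLEC4G and CLEC4M. At a mean of 1 CPM or more were CD14 and CSF1R (macrophage), SERPINA1 and ASGR1 (hepatocyte), CD4 (T cell) and TEK and TIE1 (endothelial). The endothelial markers summed to 9.9 to 14.7 CPM with PBS and 11.7 to 13.7 CPM with HIV-1. Epithelial genes stood higher, with 6 of 11 markers, among them KRT8 and KRT18, at 1 CPM or more. Their sum was 578 to 755 CPM with PBS and 598 to 738 CPM with HIV-1. Desmin (DES), which marks stellate cells of several species, stayed below 0.3 CPM. Batch 3 stood apart from batches 1 and 2 whatever the treatment, on a first principal component that held 90.4% of the variance of the 9 libraries.

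No gene passed in HIV-1 against PBS in the main fit of 9 libraries. In edgeR's quasi-likelihood test with the batch as a block, 0 of 16117 genes reached an adjusted p below 0.05 (0%), and the lowest adjusted p was 0.946. At an unadjusted p below 0.05 there were 678 genes (4.21%), 415 with a log2 fold change above 0 (2.57%) and 263 below 0 (1.63%), where 805.9 in all are expected if no gene changed. DESeq2 with the same block called 3 of 19990 genes (0.015%), IGFBP5, MRPL23 and ANGPTL5, which are described with their values further on. In a single draw of simulated counts with nothing changed, DESeq2 with the block made 3 calls, and edgeR 1. A single draw does not show how such counts vary, so nothing is read from it about the genes called. On the 6 PBS and HIV-1 libraries alone, edgeR with the block called 2 of 15597 genes, IGFBP5 and SEMA3E. That fit had 1717 genes at an unadjusted p below 0.05, above the 678 of the main fit and the 805.9 expected there. The standard error of SEMA3E was 0.0687 with 6 libraries and 0.145 in the main fit. In the libraries with virus plus lipoteichoic acid SEMA3E was at 14.4, 18.4 and 8.6 CPM in batches 1, 2 and 3. On the second principal component (4.65% of the variance) those libraries were at 1.601, -13.42 and -11.69. A response to lipoteichoic acid that differs between batches counts as spread in the main fit. How far it widened the intervals of HIV-1 against PBS was not tested. With batch 1 left out of the main fit, edgeR called 5 genes, ACTA2, LMOD1, TGFB2, H4C8 and MRPL23. With no filter on low counts edgeR called 30 of 25265 genes, 13 higher and 17 lower, 3 of them mitochondrially encoded (ND6, ND1 and COX3). Abundant genes were among them, such as COX3 at a mean of 1115 CPM, RBM3 at 561 CPM and ACTA2 at 145 CPM. These were also tested in the main fit, where they did not pass. The standard error of ACTA2 was 0.0848 without the filter and 0.221 in the main fit.

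How small the differences were can be read from their intervals. The median size of a log2 fold change was 0.0713 over all genes tested, with a median standard error of 0.085. For 12099 genes, or 75.1%, the whole 95% interval of the fold change lay within 1.5-fold of no change, and within 2-fold for 86.1%. Of the 9306 genes whose mean was 10 CPM or more, that was so for 9279, or 99.7%. Only 1 of these more abundant genes had a fitted change of 1.5-fold or more and 0 reached 2-fold, while among all genes 584 and 112 did, nearly all of low counts.

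**Figure D1:**
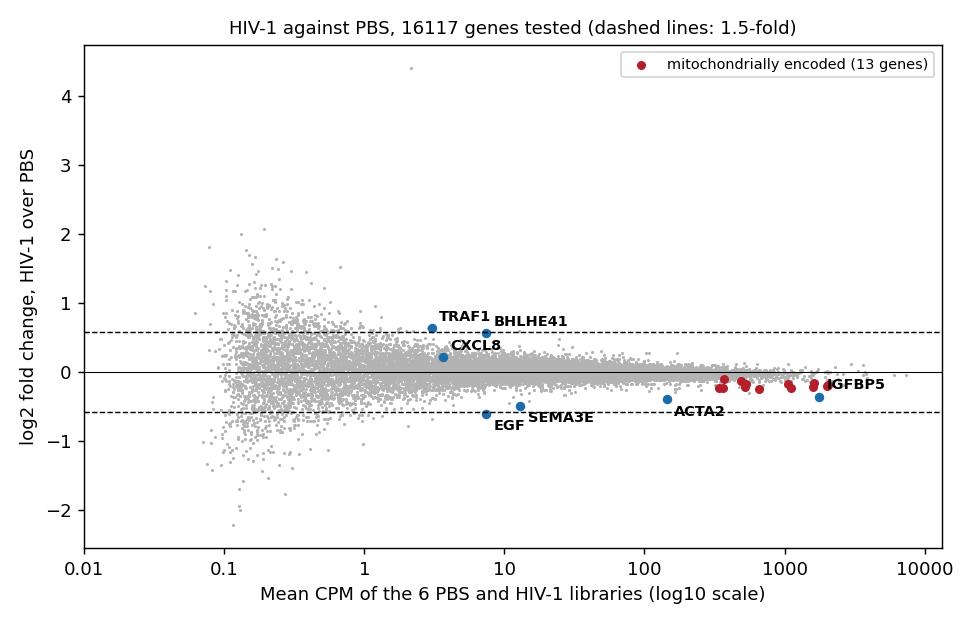
Fitted log2 fold change of HIV-1 over PBS (vertical axis) against the mean CPM of the 6 libraries (horizontal, log10 scale) for 16117 genes; dashed lines mark 1.5-fold, red points the 13 mitochondrially encoded genes and blue points genes described in the text. The cloud narrows as the level rises; the lone point near the top is the small RNA gene RNU6-7, with 645 counts in HIV-1 replicate 1 and 12 to 34 in the other 5 libraries.

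CXCL8 (hg19 chromosome 4, 74606236 to 74609433) was close to PBS in cells with virus. It stood at 3.64, 2.58 and 3.88 CPM in PBS replicates 1, 2 and 3 and at 3.26, 4.54 and 3.89 CPM in the HIV-1 replicates. Only in batch 2 was HIV-1 clearly above PBS, and the groups overlapped. The fitted fold change was 1.15, with a 95% interval of 0.84 to 1.59, and the log2 fold change was 0.21 (SE 0.21, edgeR adjusted p 0.951). Without batch 2 the log2 fold change was -0.068, and without PBS replicate 2 alone it was -0.10. The 250 bases before the RefSeq start of CXCL8 (GRCh38.p14, chr4:73740319-73740568, plus strand) are shown because NF-kB acts on this gene through them; capitals mark the match to GGNNNTTCC, a core of NF-kB sites, searched on both strands.

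CXCL8: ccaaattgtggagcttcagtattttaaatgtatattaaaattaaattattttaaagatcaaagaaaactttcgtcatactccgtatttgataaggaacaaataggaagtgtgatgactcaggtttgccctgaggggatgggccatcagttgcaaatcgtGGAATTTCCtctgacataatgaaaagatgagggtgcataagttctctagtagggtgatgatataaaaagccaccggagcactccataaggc

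The match begins 91 bases before the start. Of 27305 RefSeq promoters, 17.1% hold these letters in the same window, so a match alone sets no gene apart. TRAF1 and NFKB2, the NF-kB genes described next, hold no match in theirs.

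Among 26 chemokine and cytokine genes tested, 0 passed and 18 had a log2 fold change above 0, with a median of 0.10; over all genes tested 49.2% were above 0 and the median was -0.0015. The batch medians were -0.047, 0.10 and 0.15 in batches 1, 2 and 3. CXCL3, a neutrophil-attracting chemokine, had the lowest p of the list. It was at 0.214, 0.272 and 0.16 CPM with PBS and 0.245, 0.484 and 0.588 CPM with HIV-1, giving a log2 fold change of 1.01 (SE 0.459, unadjusted edgeR p 0.0482). These levels rest on few counts, and only 11 of the 26 genes had an interval within 1.5-fold. IL6 was at 0.26 (SE 0.204), CXCL1 at 0.30 (SE 0.32), CCL2 at 0.11 (SE 0.229) and IL11, a fibrosis-linked cytokine, at 0.24 (SE 0.135) on the log2 scale. CXCL1 was lower with HIV-1 in batch 1 and higher in batches 2 and 3.

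NF-kB genes were mostly above 0 by small amounts. Of 32 subunits, inhibitors and targets, 22 were above 0 (median 0.043, batch medians 0.015, 0.041 and 0.11) and 0 passed. Leaving out single libraries or batches moved this median between 0.0029 and 0.11. At an unadjusted p below 0.05 there were 3 above 0, against 2.57% of all genes, and 1 below 0, against 1.63%. TRAF1, a signalling adaptor induced by NF-kB, was at 2.43, 2.61 and 2.12 CPM with PBS and at 2.86, 3.72 and 4.53 CPM with HIV-1. NFKB2, the p100 precursor of the non-canonical pathway, was at 27.3, 26.7 and 19.9 CPM with PBS and at 29.2, 30.4 and 27.9 CPM with HIV-1. In both, every HIV-1 library lay above every PBS library, as for 1.54% of all genes tested. The log2 fold changes were 0.63 (SE 0.206, unadjusted edgeR p 0.0105) and 0.26 (SE 0.0862, unadjusted edgeR p 0.0114), with the largest difference in batch 3 for each. NFKBIA, the feedback inhibitor IkB-alpha, was at -0.019 (SE 0.0678), and MAP3K8, a kinase upstream of ERK, was at -0.37 (SE 0.13).

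The receptors for the virus were measured as RNA only. CD4 was at 13.5 and 12.8 CPM in PBS replicates 1 and 2 but 1.36 CPM in PBS replicate 3, and at 14.2, 12.9 and 1.51 CPM with HIV-1. Batch 3 was thus far below the other batches in either group, and the fitted log2 fold change was 0.051 (SE 0.13); without PBS replicate 3 it was -0.0054 and without HIV-1 replicate 1 it was -0.075. CXCR4, a co-receptor, had 1 to 16 counts per library, too few to be tested. The attachment proteoglycans syndecan 1 (SDC1) and syndecan 4 (SDC4) were measured at 122 and 321 CPM with PBS and at 129 and 320.3 CPM with HIV-1. Of 17 entry and attachment genes tested 0 passed, and 15 had an interval within 1.5-fold.

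None of the host factors that the virus uses or meets passed. All 34 cofactors tested, among them PSIP1 (the integrase tether LEDGF), CPSF6, NUP153 and the Tat partners CCNT1 and CDK9, had intervals within 1.5-fold, against 75.1% of all genes and 99.7% of those at 10 CPM or more, and their fitted log2 fold changes had a median of -0.016. PSIP1 had the lowest p of the list, at -0.11 (SE 0.0521). Of 26 restriction factors, with a median of -0.016, 22 were so bounded. At an unadjusted p below 0.05 there was 1 above 0, against 2.57% of all genes, and 0 below 0, against 1.63%. That gene was SELPLG, at 0.49 (SE 0.18, unadjusted edgeR p 0.0199) with batch differences of 0.0002, 0.64 and 0.83. SAMHD1, which depletes nucleotides, was at 0.029 (SE 0.0572), BST2 (tetherin) at 0.052 (SE 0.0953), TRIM5 at -0.031 (SE 0.0641) and APOBEC3G at -0.093 (SE 0.12). The sign of these medians turned with scaling by library size alone, to 0.012 for the cofactors and 0.011 for the restriction factors.

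Interferon-stimulated genes showed no common direction. Of 53 tested, 28 were above 0 and 25 below, the median was 0.02, and 0 passed. At an unadjusted p below 0.05 there were 2 above 0, IRF7 at 0.39 (SE 0.16) and USP18 at 0.42 (SE 0.178), and 2 below 0, the GTPases GBP1 at -0.23 (SE 0.0865) and GBP2 at -0.24 (SE 0.0962). These counts are near the 2.57% and 1.63% of all genes, and the list's median ran from -0.064 to 0.092 when single libraries or batches were left out. GBP1 was at 118, 132 and 157 CPM with PBS and at 113, 105 and 127 CPM with HIV-1, so the groups overlapped. The classic members IFIT1 and MX1 were at 0.022 (SE 0.114) and -0.027 (SE 0.217), and ISG15, a ubiquitin-like modifier, was at 0.17 (SE 0.102). For IFIT1 the interval runs from 0.854-fold to 1.21-fold. None of the 16 sensors and adaptors of viral nucleic acid reached an unadjusted p below 0.05, and 14 had intervals within 1.5-fold. Of the Toll-like receptor genes, TLR2, the main receptor for lipoteichoic acid, was at 0.296 CPM with PBS and 0.268 CPM with HIV-1 (means of 3), and its co-receptor CD14 at 5.5 and 4.88 CPM.

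The genes of the mitochondrial genome were the list with the most even direction. They encode subunits of the respiratory chain and are transcribed together from long precursors, so they are not independent. All 13 were below 0, with a median log2 fold change of -0.21, and 0 passed; with no filter on low counts ND6, ND1 and COX3 did. In 12 of the 13 HIV-1 was lower in all 3 batches, against 16.9% of all genes tested, and 9 had an unadjusted p below 0.05 with a value below 0, against 1.63% of all genes. ND6, a complex I subunit, is the only 1 of the 13 encoded on the light strand. It was at 739.7, 746 and 646 CPM with PBS and at 648, 585 and 559 CPM with HIV-1, a log2 fold change of -0.25 (SE 0.0576, unadjusted edgeR p 0.00102). Its highest HIV-1 library lay just above its lowest PBS library, from another batch. ATP8, a subunit of ATP synthase, was at 377, 409.6 and 398 CPM with PBS and at 349, 306 and 358 CPM with HIV-1, so that its groups did not overlap, as for 1.19% of all genes with HIV-1 below.

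The size of this difference depended on the batch. The list's median was -0.05, -0.43 and -0.13 in batches 1, 2 and 3. The 13 genes took 1.3%, 1.47% and 1.22% of all counts in PBS replicates 1, 2 and 3 and 1.26%, 1.11% and 1.18% in the HIV-1 replicates. The share was lower with HIV-1 in every batch, but with 3 pairs an exact paired permutation test cannot go below a two-sided p of 0.25. Leaving out single libraries or batches moved the list's median between -0.29 and -0.089.

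**Figure D2:**
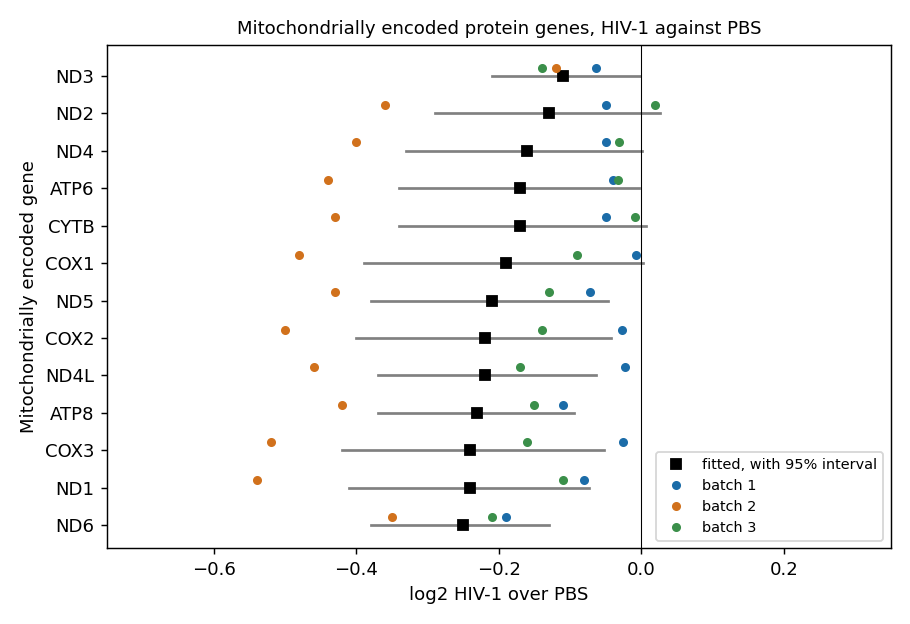
Log2 HIV-1 over PBS for the 13 mitochondrially encoded protein genes: black squares with grey bars are the fitted values with 95% intervals, coloured points the difference of log2 CPM within each batch. Batch 2 lies lowest for 12 genes, between -0.54 and -0.35, while batches 1 and 3 lie closer to 0; for ND3 batch 3 is lowest.

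Nuclear genes for the same complexes lay nearer to the rest of the genes. Of 49 nuclear respiratory chain subunits 18 were above 0 and 31 below, with a median of -0.02 (0.0078 when scaled by library size alone), and all 49 intervals lay within 1.5-fold. The lowest p belonged to ATP5MC1, a ring subunit of ATP synthase, at -0.11 (SE 0.0529). Factors that express the mitochondrial genome had a median of -0.0035 over 30 genes (0.024 when scaled by library size alone and 0.0054 by upper quartile), 29 of them bounded within 1.5-fold. Among 76 mitochondrial ribosomal proteins 5 were above 0 and 1 below at an unadjusted p below 0.05, against 2.57% and 1.63% of all genes. MRPS12, a small-subunit protein, was at 16.9, 16.4 and 16.2 CPM with PBS and at 18.4, 20 and 18.1 CPM with HIV-1, without overlap (log2 fold change 0.19, SE 0.066). The difference between the mitochondrial and nuclear lists was not tested.

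IGFBP5 had the lowest p of all genes. Its product is secreted and holds insulin-like growth factors in the matrix (hg19 chromosome 2, 217536828 to 217560272, minus strand). It was at 1995, 2785 and 1200.1 CPM with PBS and at 1743, 1973 and 914 CPM with HIV-1. Within each batch HIV-1 was lower, by log2 differences of -0.20, -0.50 and -0.39, while the groups overlapped because the batches differ. The fitted fold was 0.778 (95% interval 0.698 to 0.867), with an unadjusted edgeR p of 0.000304 and an adjusted p of 0.946. DESeq2 with the block called it (log2 fold change -0.37, SE 0.0698, adjusted p 0.00174), as did edgeR on the 6 libraries alone (adjusted p 0.0383) and edgeR with no filter on low counts (adjusted p 3.94e-06). Without the filter the standard error of IGFBP5 was 0.055, against 0.0713 in the main fit. That setting also called RNU6-7, whose 645 counts in HIV-1 replicate 1 stood alone among the PBS and HIV-1 libraries. With virus plus lipoteichoic acid IGFBP5 was at 1966, 2333 and 1229 CPM. Of the other 17 genes of the insulin-like growth factor axis, 0 passed; IGFBP7 was at -0.13 (SE 0.0725) and the IGFBP-cleaving protease PAPPA at -0.16 (SE 0.102).

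Other genes below 0 with a low p and the same sign in every batch came from several functions. Semaphorin 3E (SEMA3E), a secreted guidance cue, was at 14.4, 16.8 and 14.5 CPM with PBS and at 11, 11.4 and 9.95 CPM with HIV-1. Its groups did not overlap, and the log2 fold change was -0.50 (SE 0.145). It passed in edgeR on the 6 libraries (adjusted p 0.0383) and with no filter on low counts (adjusted p 0.00328). Its standard errors in those fits were 0.0687 and 0.0966. The zinc importer gene SLC39A10 was at 57.5, 53.6 and 65.3 CPM with PBS and at 50.2, 47.4 and 51.1 CPM with HIV-1 (-0.24, SE 0.0567), also without overlap. DAB2, an endocytic adaptor, was at -0.22 (SE 0.0499, unadjusted edgeR p 0.000962). Its differences of -0.19, -0.19 and -0.27 were nearly equal across the batches. ARNT2, a partner of bHLH-PAS transcription factors, was at -0.27 (SE 0.0656), the ubiquitin ligase receptor gene DCAF16 at -0.20 (SE 0.0513) and the epidermal growth factor gene EGF at -0.61 (SE 0.20). PSG4, at -0.28 (SE 0.0681), belongs to a family of near-identical genes whose reads may have been split, so its value is uncertain.

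**Figure D3:**
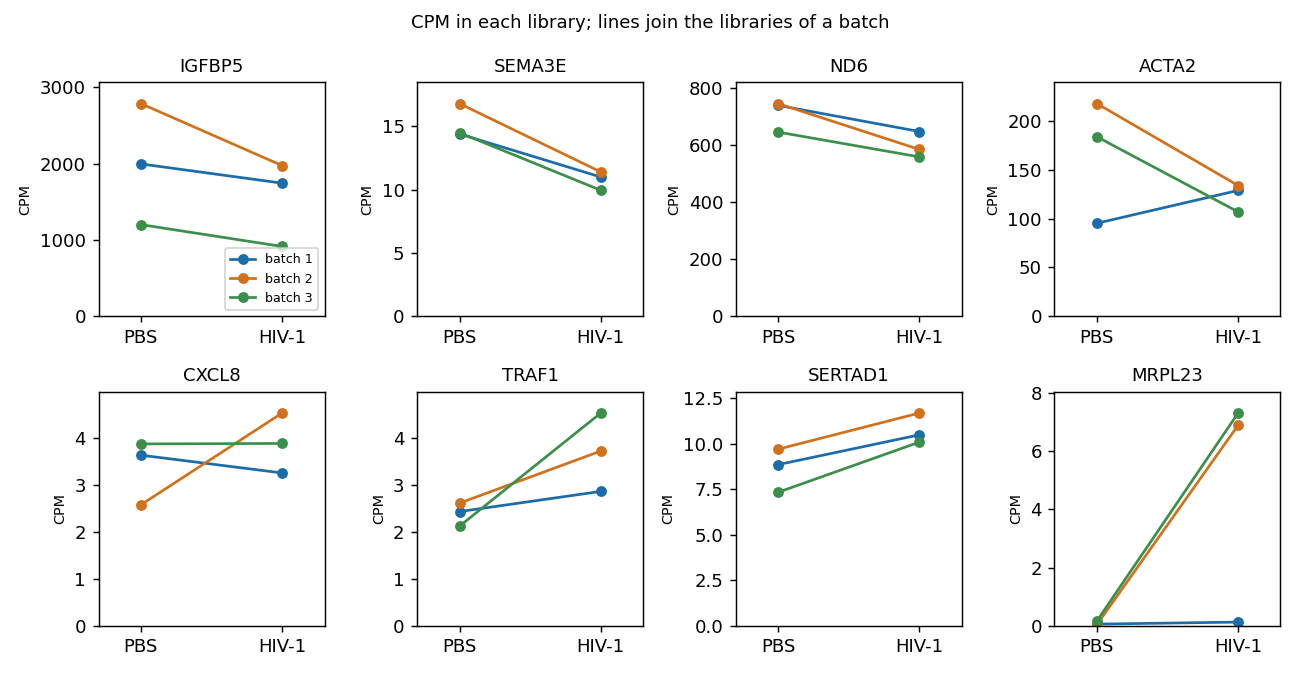
CPM of 8 genes in each PBS and HIV-1 library, with a line joining the libraries of a batch; every axis starts at 0. IGFBP5, SEMA3E and ND6 slope down and TRAF1 and SERTAD1 slope up in all 3 batches, ACTA2 and CXCL8 differ in direction between batches, and MRPL23 is near 0 except in HIV-1 replicates 2 and 3.

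On the upper side the 10 genes with the lowest p had log2 fold changes of 0.22 to 0.63, and 2 of them did not overlap between groups, against 1.54% of all genes with HIV-1 above; since p chose these genes, nothing is read from that count. ZNF282, a zinc finger repressor, was at 18.4, 21.2 and 19.7 CPM with PBS and at 21.8, 25.2 and 23 CPM with HIV-1, with differences of 0.25, 0.24 and 0.22 in the batches. SERTAD1, a regulator of CDK4 and E2F, was at 8.86, 9.71 and 7.34 CPM with PBS and at 10.5, 11.7 and 10.1 CPM with HIV-1. Among the others were BCL9L, a beta-catenin co-activator, at 0.27 (SE 0.07), MBD3, a NuRD subunit, at 0.29 (SE 0.0797) and BRD1, an acetyltransferase scaffold, at 0.25 (SE 0.0721). TUBGCP6, of the microtubule-nucleating ring, was at 0.26 (SE 0.0724) and the tetraspanin TSPAN4 at 0.25 (SE 0.0692). The adjusted p of each was over 0.9. Of genes at 5 CPM or more with the same sign in every batch, BHLHE41, a repressor of the circadian clock, had the highest log2 fold change, 0.56 (SE 0.219). Its difference was largest in batch 3, where it stood at 4.92 CPM with PBS and 13.9 CPM with HIV-1, against 5.87 and 5.96 CPM in batch 1.

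Replication-dependent histone genes, expressed in S phase, stood above 0 in 32 of 40 (median 0.19), and 7 had an unadjusted p below 0.05, against 2.57% of all genes; 0 passed. Most were of low count, and only 14 intervals lay within 1.5-fold. H4C8 was at 40.3, 25.9 and 15.1 CPM with PBS and at 38.7, 38.8 and 22.7 CPM with HIV-1, a log2 fold change of 0.36 (SE 0.106). In batch 1 its difference was -0.058, and in batches 2 and 3 it was 0.58. H2BC6 was at 0.79 (SE 0.256) and H4C5 at 0.54 (SE 0.204). The coding sequences of these genes are near-identical, so reads may have been split between them. Cell cycle and replication genes had 19 above and 19 below 0, and all 38 intervals lay within 1.5-fold, with MCM5, a helicase subunit, at 0.11 (SE 0.0498) and cyclin E1 (CCNE1) at 0.18 (SE 0.0805).

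Most growth factor response genes were above 0. Of 24 immediate early genes 19 were above 0 (median 0.13, batch medians 0.087, 0.10 and 0.18), and 9 were higher with HIV-1 in all 3 batches (37.5%, against 16.3% of all genes). IER3, an early survival gene, was at 14.1, 13.8 and 15.9 CPM with PBS and at 14.9, 18.6 and 20.5 CPM with HIV-1 (0.30, SE 0.0952). FOSB was at 0.36 (SE 0.151), ATF3 at 0.24 (SE 0.111) and KLF2 at 0.34 (SE 0.154). Of 26 genes that damp MAP kinase signalling 21 were above 0, against 49.2% of all genes, and 6 were above 0 at an unadjusted p below 0.05, against 2.57%, but the batch medians ran from -0.015 in batch 1 to 0.13 and 0.28 in batches 2 and 3. SPRY4, a Sprouty inhibitor, was at 0.26 (SE 0.08) with batch differences of -0.012, 0.39 and 0.39. DUSP5, a phosphatase of nuclear ERK, was at 0.26 (SE 0.0976) with -0.017, 0.28 and 0.53. No member of either list passed.

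Scar-forming genes did not share a direction. Of 34 activation and matrix genes 13 were above 0 and 21 below, with batch medians of 0.11, -0.16 and -0.017, and 0 passed. ACTA2, the smooth muscle actin that marks activated stellate cells, was at 95.3, 218 and 184 CPM with PBS and at 129, 134 and 107 CPM with HIV-1. PBS replicate 1 was the lowest library of its group by far, and in batch 1 HIV-1 was above PBS by 0.44, whereas in batches 2 and 3 it was below by -0.70 and -0.78. The fitted log2 fold change was -0.40 (SE 0.221, edgeR adjusted p 0.946), and without PBS replicate 1 it was -0.79 with an adjusted p of 0.00511. The collagens COL1A1, COL1A2 and COL3A1 were at 0.11 (SE 0.103), 0.063 (SE 0.0815) and -0.10 (SE 0.137), and fibronectin (FN1) at -0.047 (SE 0.12). COL6A3, a chain of beaded collagen VI, was at 0.27 (SE 0.103), mainly through batch 3 (0.65). Among 28 TGF-beta targets 18 were above 0, with SNAI1, a repressor of epithelial genes, at 0.37 (SE 0.154) and the receptor TGFBR1 at -0.20 (SE 0.0722). Of 24 metalloproteinase and inhibitor genes 14 were above 0 and none reached an unadjusted p below 0.05; MMP2 was at -0.11 (SE 0.195) and TIMP1 at 0.12 (SE 0.0971).

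Stress and metabolic lists had medians close to 0. Of 29 integrated stress and unfolded protein response genes 21 were above 0, or 72.4% against 49.2% of all genes (median 0.033), 4 of them at an unadjusted p below 0.05, against 2.57%, and 0 passed. SLC3A2, the heavy chain of amino acid transporters, was at 82.3, 95.4 and 98.2 CPM with PBS and at 87.8, 118 and 129 CPM with HIV-1 (0.27, SE 0.0795). PPP1R15A, which restores translation after stress, was at 0.28 (SE 0.0844). Of 25 p53 targets 15 were above 0 (median 0.051), with cyclin G1 (CCNG1) at -0.17 (SE 0.0561) and without overlap. Hypoxia and glycolysis, antioxidant and iron, and cholesterol synthesis genes had medians of -0.022, -0.0073 and 0.0036, and all 26 cholesterol genes were bounded within 1.5-fold. Scaling by library size alone turned the first pair of medians to 0.0045 and 0.02, upper quartile scaling turned the second to 0.0016, and DESeq2 size factors turned the third to -0.0051. Cytosolic ribosomal proteins, which make up 3.96% to 4.4% of the counts of the PBS libraries, were below 0 in 58 of 78 and above 0 in 25.6%, with a median of -0.045, and batch medians of -0.032, 0.022 and -0.12.

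**Figure D4:**
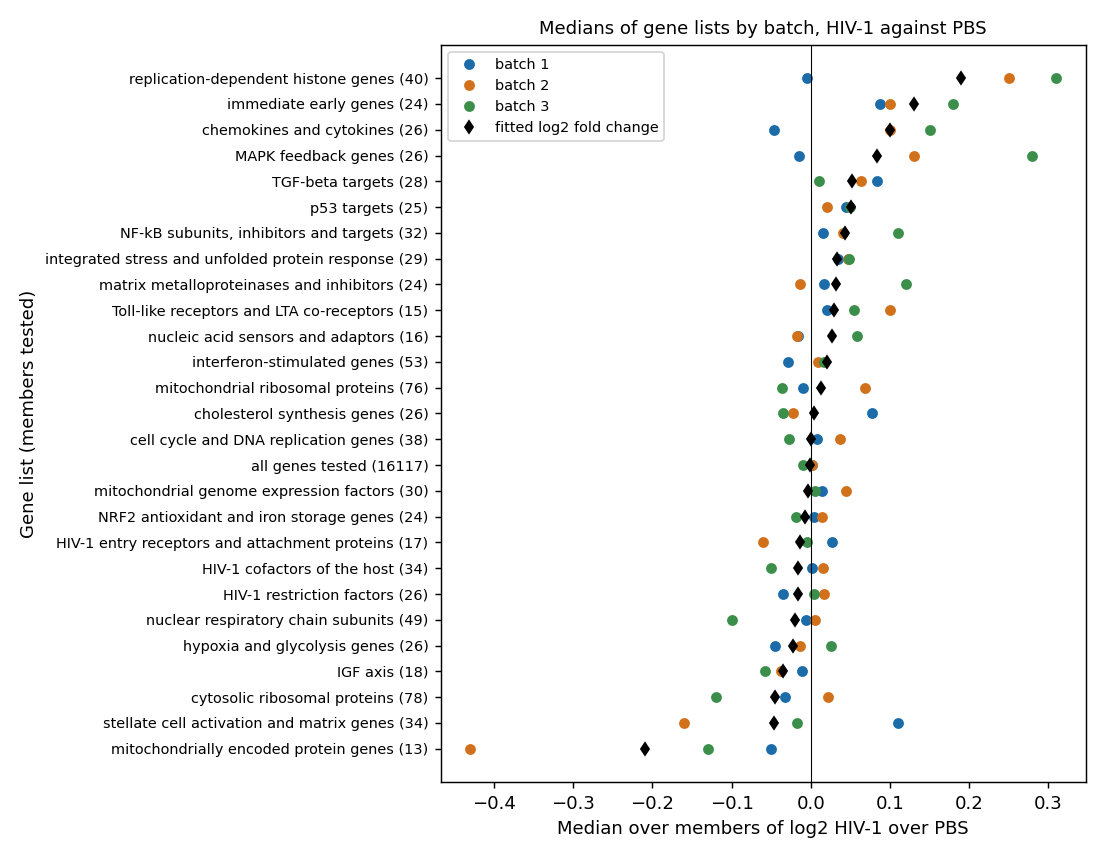
Median over the tested members of each gene list (number in brackets) of log2 HIV-1 over PBS, as fitted (black) and within each batch (coloured). Mitochondrially encoded genes lie lowest, at -0.21 as fitted, and histone genes highest, at 0.19; for histone, MAPK feedback and chemokine genes batch 1 lies near 0 while batches 2 and 3 lie above.

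Both other genes that DESeq2 called rest on few counts or few libraries. MRPL23, a protein of the mitochondrial ribosome (hg19 chromosome 11, 1968508 to 2005752), had 5, 3 and 8 counts in the PBS libraries and 7, 414 and 423 in the HIV-1 libraries. HIV-1 replicate 1 was thus at the level of PBS, and so were the libraries with virus and lipoteichoic acid, with 6, 9 and 7 counts. Most cell types express MRPL23, so counts this low in 7 of 9 libraries leave its values uncertain; how reads were assigned to it was not tested. The filter on low counts kept MRPL23 out of the edgeR test, and DESeq2 gave it an adjusted p of 0.0342. ANGPTL5, an angiopoietin-like protein, had 3 counts in PBS replicate 2, 0 in the other 5 libraries compared and 8 in 1 library with lipoteichoic acid, so no fold is given.

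The differences between HIV-1 and PBS were smaller than those between batch 3 and the other batches. By their medians they were of similar size to those between batches 1 and 2, though fewer genes differed strongly. Among genes of at least 10 CPM the median size of the HIV-1 minus PBS difference in log2 CPM was 0.044, 0.0678 and 0.083 in batches 1, 2 and 3. Between PBS libraries it was 0.0792 for batch 2 against batch 1, less than the 0.083 of HIV-1 in batch 3, and 0.355 and 0.362 for batch 3 against each of them. Between the HIV-1 libraries of batches 1 and 2 it was 0.0741. A difference over 0.5 was found for 3, 17 and 36 genes in the 3 batches, out of 9306 (0.0322%, 0.183% and 0.387%). From batch 1 to batch 2, 97 genes were higher and 35 lower by over 0.5 with PBS (1.42%). With HIV-1 these were 49 and 11 (0.645%). The 9306 genes are not independent replicates. Across them the HIV-1 minus PBS difference of batches 2 and 3 correlated at r = 0.38 (rho 0.35). That of batches 1 and 3 correlated at 0.20 (rho 0.21) and that of batches 1 and 2 at 0.075 (rho 0.10). The 5 genes over 0.5 in both batches 2 and 3 had the same sign in both: ACTA2, LMOD1 (an actin nucleator of smooth muscle), SEMA3E and the natriuretic peptide gene NPPB were lower and H4C8 was higher. In batch 1 NPPB was at 10.1 CPM with PBS and 13.6 CPM with HIV-1, and LMOD1 at 11.3 and 12.1 CPM, so for these and ACTA2 batch 1 lay on the other side.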

How the data were processed

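Per the series' design text and the submitters' processing notes, reads were trimmed with fastp, aligned to hg19 with STAR and counted with HTSeq; versions, library kit and strand setting are not given in the sources used here, so overlapping and antisense genes cannot be told apart. Raw counts by gene symbol are what the authors deposited, with 50628144 to 90599780 in a library. Their table of differential expression and their peak list were not used here.

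Low counts were removed with filterByExpr, given the groups. The test was the quasi-likelihood test of edgeR 4.0.16 with TMM scaling, 1 fit of 9 libraries with batch as block and group, and Benjamini-Hochberg adjustment over all 16117 genes; a gene passed at an adjusted p below 0.05. SE is the log2 fold change divided by the square root of F, and 95% intervals use its degrees of freedom. CPM are TMM-scaled; log2 CPM of single libraries used a prior count of 2. Other settings tried were limma-voom (limma 3.58.1), DESeq2 1.42.0, no block, other scalings and filters, the 6 libraries alone and leaving out libraries or batches (R 4.3.3).

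The replicate number is the labelled batch, which pairs libraries. As a check, deviations from group means correlated at 0.943 to 0.983 between PBS and HIV-1 libraries of a batch and at 0.831 to 0.833 between batches 1 and 2. Between batch 3 and batches 1 or 2 they correlated at -0.942 to -0.925. Batch 3 stood apart and so weighs on all these values. For batches 1 and 2 the check rests on 0.946 and 0.943 within a batch against 0.831 and 0.833 between them. Counts of 16117 genes were simulated for HIV-1 against PBS, with 67, 67 and 66 genes changed by 1.5-fold, 2-fold and 4-fold. The changed genes were drawn from those with a mean of at least 1 CPM. Each change was put into the HIV-1 libraries and equally into those with lipoteichoic acid. Apart from random spread, no response to lipoteichoic acid that differs between batches was simulated. Of the changed genes, edgeR with the block recovered 79.1%, 98.5% and 100%, with 14 false calls. With nothing changed it made 1 call. DESeq2 with the block recovered the same shares, with 20 false calls, and made 3 calls when nothing was changed. The shares describe only the genes changed in the simulation and are not rates for every gene tested. How far they hold for genes of low count is not shown.

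The members and the 32 gene lists (6 of them cell type markers) were chosen with earlier results of these data known, so no list was tested as a set. Named are CXCL8, CD4, CXCR4, IGFBP5, MRPL23 and ANGPTL5; among genes with the same sign in all batches, the 10 lowest p in each direction (mean of at least 1 CPM) and the 10 largest log2 fold changes in each (at least 5 CPM), leaving out pseudogenes, small and antisense RNAs and uncharacterised loci; and up to 4 members per list by p. Other list members, RNU6-7 and genes called under 1 alternative were named after their values were seen. The result of 1 gene that the rule names is not reported here. Gene positions are from GENCODE 44 lifted to hg19, and the promoter from RefSeq.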

Additional observations from a re-analysis of the deposited data

How the results depend on the processing

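With the replicate block removed, edgeR still called 0 genes, 42 had an unadjusted p below 0.05 and 6907 intervals lay within 1.5-fold, since batch differences then count as spread. DESeq2 with the block called 3 genes, and without it 1, with 126 below that p. edgeR on the 6 libraries alone called 2 (IGFBP5 and SEMA3E) and had 1717 of 15597 genes below that p, against 678 of 16117 in the main fit. Without a filter on low counts it called 30 genes with 1034 below that p. Leaving out single libraries or batches gave 0 to 5 calls, 232 to 1221 genes below that p and 11244 to 11687 bounded within 1.5-fold; 5 calls came without batch 1, 2 without PBS replicate 1 (ACTA2 and MRPL23) and 1 without HIV-1 replicate 1 (MRPL23). limma-voom with the block and the 3 other scalings called 0. Over the same omissions the log2 fold change of CXCL8 ran from -0.10 to 0.40 and that of CD4 from -0.075 to 0.17; of 2619 values of named genes 4 changed sign, all of these 2 genes, and 24 passed where they had not. The cause was not tested. The median standard error was 0.085 over all genes and 0.0622 at 10 CPM or more.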

Other observations

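Groups of genes picked after their values were seen are given as values, with no test. Of 15 smooth muscle contractile genes 13 were below 0, with batch medians of 0.15, -0.24 and -0.21. TAGLN, an actin-binding protein of smooth muscle, was at 825, 1301 and 2326 CPM with PBS and at 933, 1057 and 1993 CPM with HIV-1, above PBS in batch 1 and below it in batches 2 and 3. LMOD1 was at -0.42 (SE 0.127). SYNPO2, which bundles actin, was below PBS in all 3 batches, at -0.31 (SE 0.0837). Of the 3 TGF-beta ligands, TGFB1 was at -0.0027 (SE 0.0617) and TGFB3 at 0.055 (SE 0.175), while TGFB2 was at -0.26 (SE 0.165). TGFB2 was at 209, 359 and 255 CPM with PBS and at 222, 274 and 190.5 CPM with HIV-1.

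Of the 17 core clock genes tested, 10 were above 0 with a median of 0.043. NR1D1, a nuclear receptor of the clock, was at 8.71, 10.6 and 9.36 CPM with PBS and at 8.5, 13.2 and 25.4 CPM with HIV-1, so that HIV-1 replicate 3 stood far above the other 5 libraries. PER1 was at 13.8, 15.5 and 4.92 CPM with PBS and at 15.9, 17 and 9.33 CPM with HIV-1, and NR1D2 was at -0.057 (SE 0.0545). NR1D1, PER1, BHLHE41 and BHLHE40 differed most in batch 3, and NR1D2 in batch 2, by -0.074.

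The cold-inducible RNA-binding protein gene RBM3 was at 496, 686 and 684 CPM with PBS and at 495, 504 and 503 CPM with HIV-1, equal in batch 1 and lower in batches 2 and 3, while its relative CIRBP was at 0.007 (SE 0.0479). All 12 heat shock genes listed were above 0, with a median of 0.11. HSPA6, a strictly inducible HSP70, was at 0.395, 0.259 and 0.40 CPM with PBS and at 0.49, 1.38 and 1.12 CPM with HIV-1. HSPA1A and HSPA1B, near-identical copies whose reads may have been split, were at 0.19 (SE 0.0714) and 0.13 (SE 0.0557).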
